A study of Mus musculus with 2 samples.

Results

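Interferon-stimulated genes are genes whose transcription rises when type I or type II interferon binds its receptor, and 47 of them were followed here in regulatory T (Treg) lineage cells. Members were chosen by symbol as known targets of either interferon, with earlier results of these data in view, and all 47 were found among the 41592 gene IDs of the deposited table. They were sorted by known function into 20 antiviral effectors, 6 nucleic acid sensors, 11 regulators and 10 guanylate-binding proteins (GBPs) and immunity-related GTPases (IRGs). A mean of at least 1 FPKM was asked before a gene was counted as measured, FPKM being counted reads scaled by gene length and by library size. Of the members, 46 passed this filter, and all 46 were at or above 1 FPKM in each library on its own. Oas1g was the exception, with 11 and 8 reads.

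The RNA came from CD4+ T cells that were sorted out of spleen and lymph node of mice with the genotype Foxp3 dCNS1-Cre-R26-YFP, on the C57BL/6 strain and 6 to 8 weeks old. In these mice Cre is tied to Foxp3 regulatory DNA that lacks the enhancer CNS1, and a YFP reporter at Rosa26 marks cells in which Cre has acted, together with their progeny. Both populations carried this genotype and were sorted on YFP, and Thy1.1 set them apart, as Thy1.1-YFP+ and Thy1.1+YFP+. Although the series speaks of Treg cells from the thymus and of precursors of exFoxp3 cells, its design text describes them by an identical marker pair, so the populations are called by their Thy1.1 staining. Each population is 1 library, and the number of animals behind it is not given in the sources used here. Differences therefore could not be checked against replicates, and no p-value is given. Every pair of values below names the Thy1.1-negative library before the Thy1.1-positive library, and a ratio is the former over the latter. The bounds in parentheses are an exact 95% interval for counting error alone, so they do not cover animals, sorts or library preparation.

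The libraries held 18536339 counted reads (Thy1.1-negative) and 18600581 counted reads (Thy1.1-positive), and the 46 measured members had a median of 2169.5 reads summed over both. Markers of the sorted lineage were abundant, with Foxp3 at 158 and 237 FPKM and Cd4 at 471 and 327 FPKM. Several defining markers of other cells that make or answer interferon were near 0. There were at most 7 reads per library of Ms4a1 (B cells), Lyz2 and Cd14 (myeloid cells) and Siglech (plasmacytoid dendritic cells), and Cox6a2 was listed at 0. The 5 NK cell markers summed to 4.49 against 3.79 FPKM, of which Klrb1c had 56 reads against 12, Eomes 111 against 150 and Ncr1 0 against 6. The summed level of 12 B cell markers was 15.8 against 10.7 FPKM, carried by Cd79b and Cd22, and that of 10 myeloid markers was 14.7 against 11.3 FPKM. Of those 10, Itgam differed most, with 229 reads against 15. The 5 stromal and endothelial markers summed to 87.2 against 64.4 FPKM, nearly all of it Pecam1, with Col1a1 at 57 reads against 23. The 7 markers of plasmacytoid dendritic cells summed to 59.04 against 69.97 FPKM, mostly Pacsin1 (33.3 against 45.3) and Irf8 (18.5 against 18.02). The part of such cells in the differences below was not tested. Proliferation genes lay in the same direction as the members, with 8 of 12 higher by 2-fold or more and a median difference of 1.84 on the log2(FPKM + 1) scale, and their part was not tested either. In bulk RNA of this kind, more cells with a transcript and more of it per cell cannot be told apart.

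Type I interferon acts mainly through the interferon-stimulated response element (ISRE) in promoters, and type II interferon through the gamma-activated site (GAS). Antiviral effectors degrade, sequester or block viral nucleic acids and proteins, whereas GBPs and IRGs assemble on membranes around intracellular microbes. Many members answer to both interferons, and a basal level without infection is well known in T cells.

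RefSeq promoter sequences on build GRCm38.p6 were matched by symbol for 33 of the 47 members, each a window of 250 bases before to 50 bases after an annotated start. An ISRE core, searched as GAAA, any 2 bases and GAAA on either strand, occurred in a window of 19 of these 33 (57.6%) and of 1079 of all 27025 genes (3.99%). A GAS core, TTCNNNGAA, which reads as a motif of the same form on both strands, occurred in 12 of 33 members (36.4%) and 2582 of all genes (9.55%). By class, the ISRE core was found in 9 of 15 antiviral effectors, all 3 sensors, none of 7 regulators and 7 of 8 GTPases. The GAS core was found in 6 of 15 effectors, none of 3 sensors, 2 of 7 regulators and 4 of 8 GTPases. Such matches are a description of letters, not of binding. For 8 members the 150 bases before the start are printed, 5′ to 3′ on the gene's strand, with matches to either core in capitals. Oas1a, Oas3 and Rsad2 are shown for their large ratios between the populations, Isg15 for 3 overlapping ISRE cores, Gbp3 and Irgm2 because their ratios were below 1, and Igtp and Tgtp1 for sharing a motif pair with Irgm2.
Oas1a (chr5:120907526-120907675, minus strand): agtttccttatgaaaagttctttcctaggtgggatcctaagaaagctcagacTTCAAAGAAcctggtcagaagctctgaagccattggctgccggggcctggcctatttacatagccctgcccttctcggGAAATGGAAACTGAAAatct
Oas3 (chr5:120777660-120777809, minus strand): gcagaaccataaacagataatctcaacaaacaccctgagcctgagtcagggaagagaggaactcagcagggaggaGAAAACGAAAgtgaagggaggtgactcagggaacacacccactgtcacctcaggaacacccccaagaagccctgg
Rsad2 (chr12:26456453-26456602, minus strand): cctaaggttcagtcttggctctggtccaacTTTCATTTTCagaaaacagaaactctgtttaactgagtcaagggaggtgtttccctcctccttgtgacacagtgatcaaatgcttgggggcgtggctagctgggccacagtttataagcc
Isg15 (chr4:156200819-156200968, minus strand): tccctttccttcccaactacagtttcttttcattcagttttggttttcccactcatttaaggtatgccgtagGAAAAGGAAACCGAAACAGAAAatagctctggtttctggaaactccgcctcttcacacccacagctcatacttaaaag
Gbp3 (chr3:142559894-142560043, plus strand): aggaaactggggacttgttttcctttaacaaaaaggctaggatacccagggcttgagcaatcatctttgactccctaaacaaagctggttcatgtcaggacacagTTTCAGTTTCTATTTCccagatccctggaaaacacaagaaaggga
Irgm2 (chr11:58214827-58214976, plus strand): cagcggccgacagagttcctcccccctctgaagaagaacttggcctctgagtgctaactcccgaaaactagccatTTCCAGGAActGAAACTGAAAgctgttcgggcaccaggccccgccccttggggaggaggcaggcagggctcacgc
Igtp (chr11:58199406-58199555, plus strand): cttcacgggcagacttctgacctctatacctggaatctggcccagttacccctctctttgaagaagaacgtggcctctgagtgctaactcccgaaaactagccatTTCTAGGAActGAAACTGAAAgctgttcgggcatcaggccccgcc
Tgtp1 (chr11:48992247-48992396, minus strand): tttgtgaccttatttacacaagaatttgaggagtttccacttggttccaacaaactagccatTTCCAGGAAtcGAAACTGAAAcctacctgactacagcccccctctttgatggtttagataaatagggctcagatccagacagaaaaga
In Irgm2, Igtp and Tgtp1 the GAS core and the ISRE core stood in 1 fixed arrangement, the GAS core followed after 2 bases by the ISRE core. This spaced pair was found in 5 of all 27025 genes (0.0185%), and 3 of these 5 were these members, which belong to the same IRG family. In Bst2 a GAS core overlapped an ISRE core, at bases -136 to -128 and -130 to -121 before the start. Within the ISRE-bearing promoters of Oas1a, Oas1g, Isg15, Bst2, Irgm1 and Gbp3, neighbouring ISRE cores overlapped each other.

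**Figure D1:**
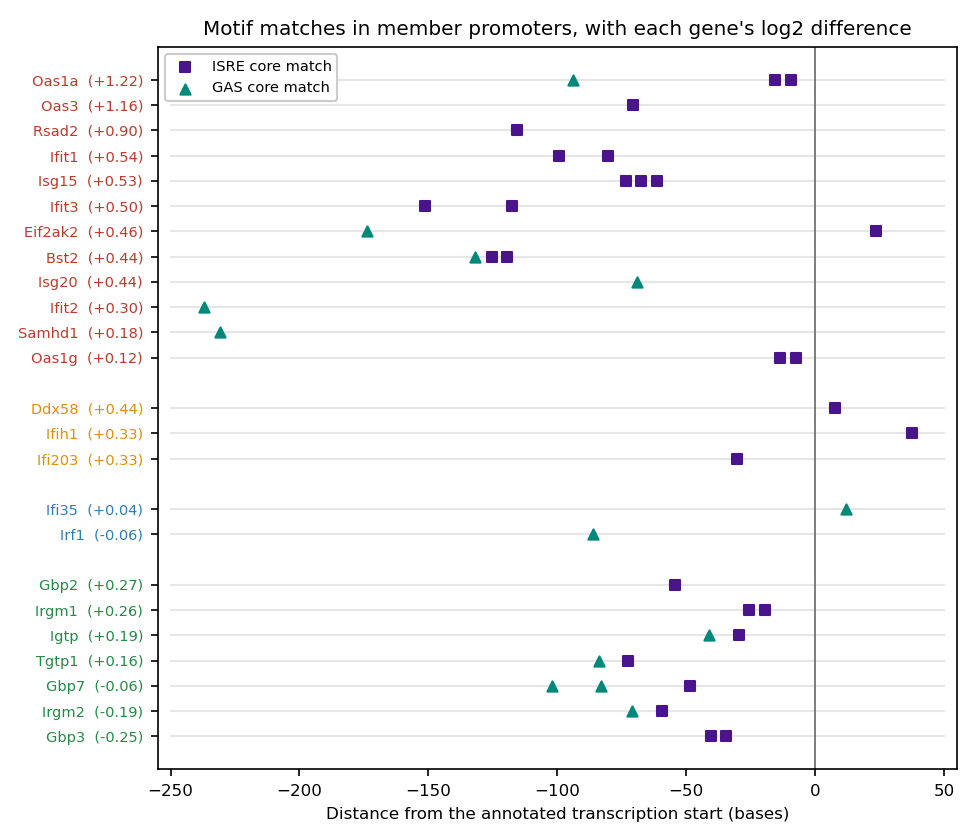
Positions of ISRE core (squares) and GAS core (triangles) matches in promoter windows of members with at least 1 match, as distance in bases from the annotated start, with windows of the same gene drawn on 1 line. The number beside each symbol is its difference of log2(FPKM + 1), Thy1.1-negative minus Thy1.1-positive, and label colours mark the 4 classes. ISRE cores occur in effectors with differences up to 1.22 and in GTPases with differences from -0.25 to 0.27.

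As a whole, the interferon-stimulated genes lay higher in the Thy1.1-negative library by modest amounts. On the log2(FPKM + 1) scale, which understates the change of low genes, the median difference of the 46 members was 0.31, against 0.03 for all 12820 measured genes. Of the members, 40 lay above 0 and 6 below, where 55.1% of all genes lay above 0 and 44.9% below. At least 2-fold higher were 4 members, against 1.93% of all genes, and none was 2-fold lower, against 1.15%. With a rule of 1.5-fold, 7 members were higher, against 5.81% of all genes, and none lower, against 3.85%. The counting interval of the ratio lay above 1 for 34 members, against 27.3% of all genes, and below 1 for 4 members, against 19.2%. With intervals built from the smallest whole reads that give each ratio, these counts were 32 and 2, as Isg20, Ifi204, Ifi27 and Irf1 then included 1. Levels spanned a wide range, from 2.68 to 571 FPKM in the Thy1.1-negative and from 1.84 to 459 FPKM in the Thy1.1-positive library. When libraries were scaled by their upper quartile, the median of all genes moved from 0.03 to 0.26, that of the members to 0.55, and all 46 members lay above 0. Relative to the median gene, 40 of 46 members lay higher.

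**Figure D2:**
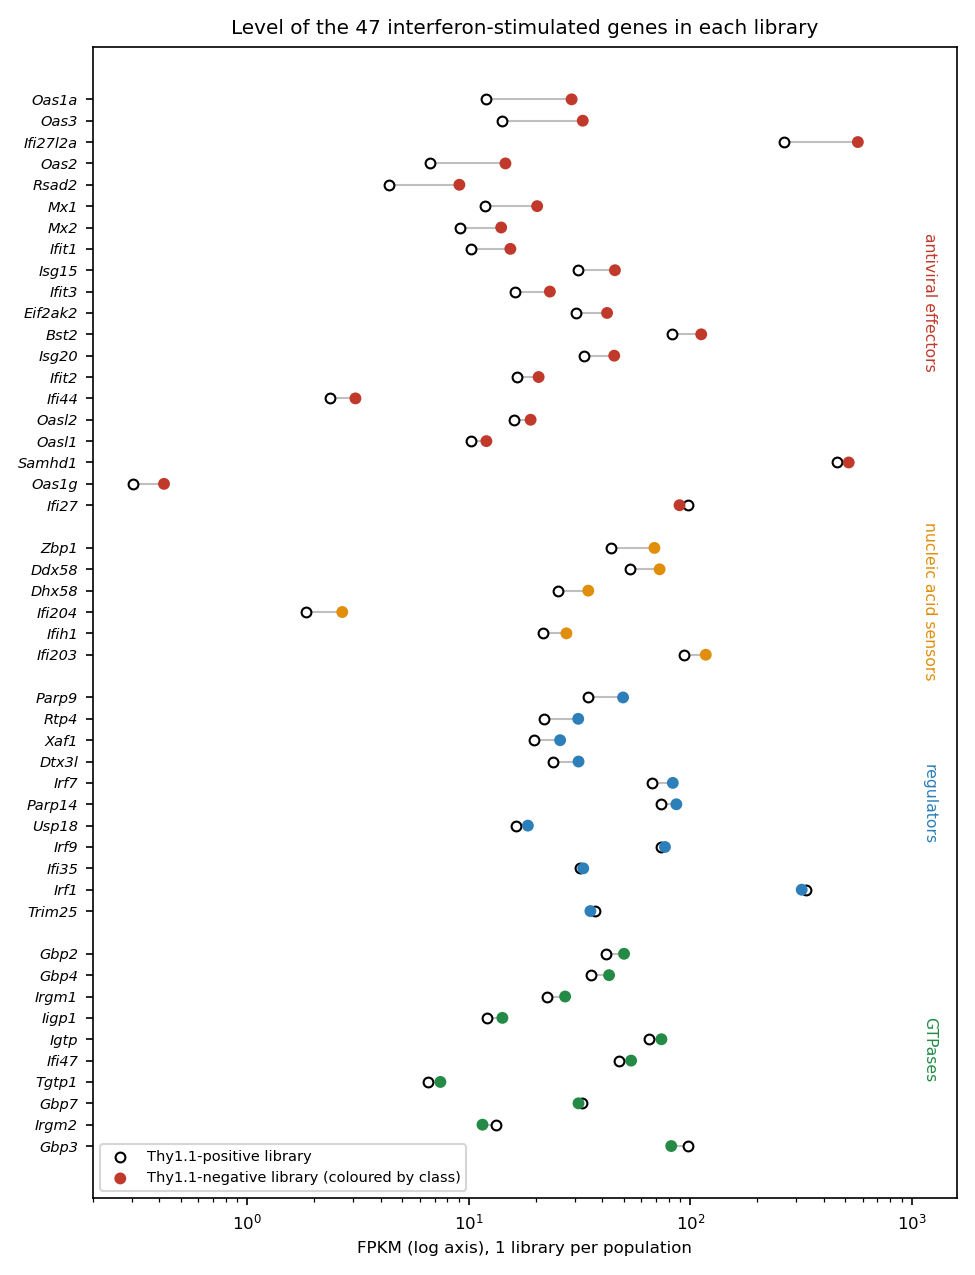
Level of each of the 47 genes in FPKM on a log axis, grouped by class and ordered within a class by the difference. Filled points are the Thy1.1-negative library and open points the Thy1.1-positive library, 1 library each. Filled points lie to the right of open ones for most genes, with the widest gaps for Oas1a, Oas3, Oas2, Rsad2 and Ifi27l2a.

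Antiviral effectors carried the largest differences, with a median of 0.50, 18 of 19 measured genes above 0 and 4 at least 2-fold higher. The oligoadenylate synthetases Oas1a, Oas2 and Oas3, neighbours on chromosome 5, make the messenger that activates RNase L, which cleaves viral and cellular RNA. Oas1a stood at 29.1 and 11.9 FPKM, from 1017 and 417 reads, a ratio of 2.45 (2.18 to 2.75). Oas3 stood at 32.7 and 14.1 FPKM, a ratio of 2.32 (2.12 to 2.54). Oas2 stood at 14.6 and 6.71 FPKM, a ratio of 2.18 (1.92 to 2.49). The intervals of these 3 neighbours overlapped. Oas2 was no longer 2-fold higher when centred on the median gene (0.99) or without the 100 highest genes in the scaling (0.99), and with a pseudocount of 5 neither Oas2 (0.75) nor Oas3 (0.98) was.

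The rest of the OAS family did not share this size. Oasl1, which in mice restrains translation of Irf7, stood at 11.999 and 10.2 FPKM, a ratio of 1.17 with bounds of 0.978 and 1.41 on either side of 1. Its relative Oasl2 stood at 19.001 and 15.97 FPKM, a ratio of 1.19 (1.04 to 1.37). Both upper limits lie below the lower limits of Oas1a, Oas2 and Oas3, so within this family the ratios differed beyond counting error. Oas1g, just beside Oas1a, had 11 reads against 8 and was not measured by the filter. Oas1a and Oas1g are near copies. Of the 50-base stretches of Oas1a transcripts, 57.6% occurred in another gene's transcripts, mostly Oas1g, so reads could have been split or dropped between them.

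Ifi27l2a, a small hydrophobic protein of the ISG12 family, combined a large difference with a very high level. It stood at 571 and 266 FPKM, from 4898 and 2288 reads, a ratio of 2.15 (2.04 to 2.26), and was at least 2-fold higher under the pseudocounts, filters and rescalings tried. Ifi27, of the same family and also on chromosome 12, was the effector with a negative difference, at 89.4 and 98.1 FPKM, a ratio of 0.911 (0.842 to 0.986). Under upper-quartile scaling its difference changed sign (0.12). The intervals of this pair do not overlap.

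Rsad2 encodes viperin, an enzyme that makes a chain-terminating nucleotide and is among the most interferon-responsive genes known. It stood at 9.06 and 4.38 FPKM, with 470 against 228 reads and a ratio of 2.07 (1.76 to 2.43). Its difference of 0.90 on the log2(FPKM + 1) scale was short of 2-fold, and passed it with a pseudocount of 0.1 (1.03) or after rescaling by the upper quartile (1.12). Mx1, a dynamin-like GTPase that blocks influenza virus in the nucleus, stood at 20.3 and 11.8 FPKM, a ratio of 1.73 (1.55 to 1.92). Its paralogue Mx2 stood at 13.99 and 9.08 FPKM, a ratio of 1.54 (1.33 to 1.80), and the intervals of the pair overlapped. In C57BL/6 mice both Mx genes are known to carry mutations that disable the protein, so the values speak of transcript only.

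The Ifit genes, whose proteins bind foreign RNA and block its translation, were graded. Ifit1 stood at 15.4 and 10.2 FPKM, Ifit3 at 23.2 and 16.1 FPKM, and Ifit2 at 20.7 and 16.6 FPKM. Their ratios were 1.503, 1.44 and 1.25, the intervals of all 3 lay above 1, and each overlapped the others. Ifit3 shared 51.2% of its 50-base stretches with other genes, mostly Ifit3b, so its counts are uncertain. Isg15, a ubiquitin-like protein that is attached to other proteins, stood at 45.7 and 31.2 FPKM, and Isg20, an exonuclease, at 45.3 and 33.2 FPKM. Eif2ak2, the RNA-activated kinase PKR that halts translation, stood at 42.1 and 30.4 FPKM. These 3 had ratios of 1.46, 1.37 and 1.38.

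The other effectors had intermediate to small differences. Bst2 (tetherin), which holds budding virions at the cell surface, stood at 112 and 82.3 FPKM, a ratio of 1.36 (1.26 to 1.47). Samhd1, which breaks down the nucleotides that reverse transcription needs, was the most abundant member by mean level, at 519 and 459 FPKM, with a ratio of 1.13 (1.11 to 1.16). Ifi44, at 3.07 and 2.35 FPKM, had the fewest reads of the measured effectors and an interval, 0.978 to 1.75, that included 1.

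All 6 nucleic acid sensors lay above 0, with a median of 0.41, and the interval of each lay above 1. Zbp1, which senses Z-form nucleic acids and can start necroptosis, had the largest difference of the class, at 68.9 and 43.95 FPKM, a ratio of 1.57 (1.47 to 1.67). It was the sensor that passed 1.5-fold. The 3 RIG-I-like receptors were near each other. Ddx58, which encodes RIG-I, stood at 72.7 and 53.3 FPKM (1.36, 1.28 to 1.46), Dhx58 (LGP2) at 34.6 and 25.3 FPKM, and Ifih1 (MDA5) at 27.6 and 21.7 FPKM. Their ratios of 1.36, 1.37 and 1.27 had overlapping intervals. The PYHIN genes, a family that includes DNA sensors, differed in level. Ifi203 stood at 117 and 93.5 FPKM, a ratio of 1.26 (1.21 to 1.31), while Ifi204, with 112 reads against 77, stood at 2.68 and 1.84 FPKM. Ifi204 and Ifi203 shared 20.02% and 12.4% of their 50-base stretches with other genes, mostly Mndal.

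Regulators spread from no difference to about the middle of the effectors, with a median of 0.22, 9 of 11 above 0 and none past 1.5-fold. The transcription factors that drive interferon responses differed little. Irf1, which responds to both interferons, was the most abundant of them, at 318 and 331 FPKM, a ratio of 0.961 (0.929 to 0.994). Irf9, a DNA-binding factor of the type I interferon response, stood at 76.8 and 73.7 FPKM, a ratio of 1.04 with bounds of 0.991 and 1.096 on either side of 1. Irf7, which amplifies type I interferon production, stood at 83.4 and 67.4 FPKM, a ratio of 1.24 (1.15 to 1.33). The ratio of Irf7 thus lay above those of Irf1 and Irf9 beyond counting error.

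Among the other regulators, the intervals of Parp9, Dtx3l, Parp14, Rtp4 and Xaf1 lay above 1, and those of Usp18, Ifi35 and Trim25 included 1. Parp9, which forms a complex with the ubiquitin ligase Dtx3l, stood at 49.7 and 34.6 FPKM, a ratio of 1.44 (1.33 to 1.55), and Dtx3l at 31.3 and 23.996 FPKM, a ratio of 1.303 (1.22 to 1.39). Their neighbour Parp14, an ADP-ribosyltransferase, stood at 86.5 and 73.9 FPKM, a ratio of 1.17 (1.13 to 1.21). The interval of Parp14 lay below those of both neighbours. From the smallest whole reads, however, the interval of Dtx3l was 1.17 to 1.45 and overlapped that of Parp14. Rtp4, a chaperone of receptor transport, stood at 31.2 and 21.8 FPKM, and Xaf1, which promotes apoptosis, at 25.8 and 19.7 FPKM. Usp18, the protease that removes Isg15 and dampens receptor signalling, stood at 18.5 and 16.3 FPKM, a ratio of 1.13. Ifi35 was nearly level at 32.9 and 31.9 FPKM. Trim25, a ubiquitin ligase of the RIG-I pathway, stood at 35.4 and 37.02 FPKM, a ratio of 0.956 (0.907 to 1.01). The signs of Irf1 and Trim25 turned after rescaling by the upper quartile, to 0.20 and 0.19.

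The GTPases differed least. Their median was 0.18, 7 of 10 lay above 0 and 3 below, and none passed 1.5-fold in either direction. Among the GBPs, Gbp2 stood at 50.2 and 41.5 FPKM, a ratio of 1.21 (1.12 to 1.303), and Gbp4 at 42.96 and 35.6 FPKM, a ratio of 1.21 (1.13 to 1.29). Gbp3, the most abundant of the class, went the other way at 82.002 and 97.4 FPKM, a ratio of 0.842 (0.798 to 0.888). Gbp7 stood at 31.3 and 32.6 FPKM, a ratio of 0.9598 (0.914 to 1.01). Gbp2, Gbp3 and Gbp7 are neighbours on chromosome 3, and the intervals of these 3 do not overlap one another.

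Among the IRGs, which are loaded onto the vacuoles of intracellular parasites, the effector-type members Ifi47 and Iigp1 had ratios slightly above 1. Ifi47 stood at 54.03 and 47.5 FPKM, a ratio of 1.14 (1.05 to 1.23), and Iigp1 at 14.2 and 12.1 FPKM, a ratio of 1.17 (1.06 to 1.30). Tgtp1, at 7.44 and 6.56 FPKM, had bounds of 0.913 and 1.41 on either side of 1. It shared 81.2% of its 50-base stretches with other genes, mostly Tgtp2, and its counts are uncertain. The regulatory-type members Irgm1, Irgm2 and Igtp, which keep the others off host membranes, did not share a direction. Igtp stood at 74.04 and 65.01 FPKM, a ratio of 1.14 (1.08 to 1.21). Irgm1 stood at 27.2 and 22.6 FPKM, a ratio of 1.202 (1.11 to 1.31), and Irgm2 at 11.5 and 13.3 FPKM, a ratio of 0.864 (0.782 to 0.955). The signs of Gbp3, Gbp7 and Irgm2 turned after rescaling by the upper quartile, to 0.01, 0.19 and 0.04, values that are still below the median gene at 0.26.

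**Figure D3:**
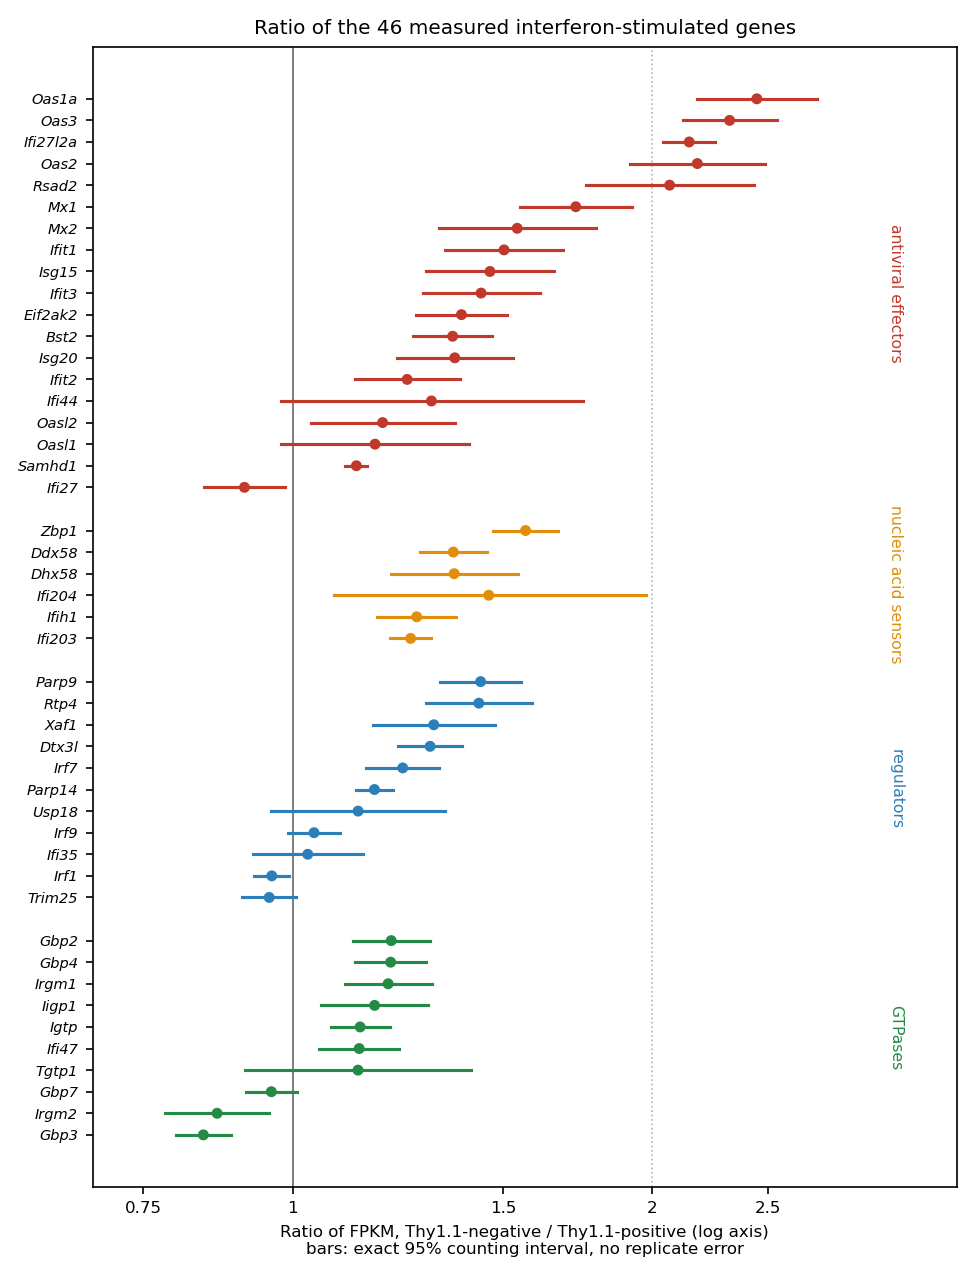
Ratio of FPKM, Thy1.1-negative over Thy1.1-positive, on a log axis for the 46 measured genes, with exact 95% counting intervals as bars and colours for the 4 classes. The dotted line marks 2. Antiviral effectors reach from 0.911 to 2.45, while the GTPases keep between 0.842 and 1.21.

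Set side by side, the antiviral effectors and the GTPases occupied different parts of the range. Of 19 effectors, 15 had a difference above the highest GTPase (Gbp2, 0.27), and none of the 10 GTPases reached the effector median. Of all measured genes, 80.6% lay below Gbp2 and 92.2% below the effector median (Ifit3, 0.50). Most genes of any kind thus also fell short of that median. The medians differed by 0.32 on the log2(FPKM + 1) scale. Without Oas1a, Oas2 and Oas3 this gap was 0.27, and with the sensors added to the effectors 0.26. Without Oas1a, Ifit3 and Tgtp1, which share most of their 50-base stretches with other genes, it was 0.27. In level the order was the opposite, the median GTPase standing at 37.1 and 34.1 FPKM and the median effector at 23.2 and 15.97 FPKM. The gap was 0.34 when 0.1 was added before the logarithm and 0.25 when 5 was added, since a larger pseudocount shrinks the differences of lower genes more.

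**Figure D4:**
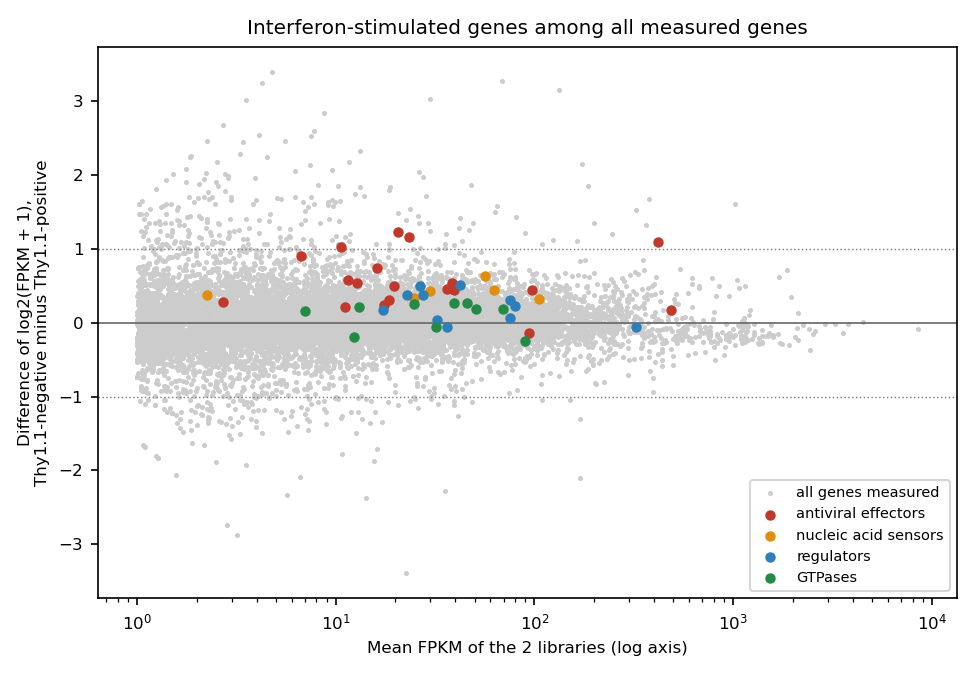
Difference of log2(FPKM + 1), Thy1.1-negative minus Thy1.1-positive, against mean FPKM on a log axis for the 12820 measured genes in grey and the 46 measured members in the colours of their classes. Dotted lines mark a 2-fold difference. Most members lie above 0, and 4 antiviral effectors lie above the upper dotted line.

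Over all classes, the 18 measured members with an ISRE core had a median difference of 0.39 and the 14 without a median of 0.22, the 7 regulators, all without, being at 0.06. The 8 measured effectors with an ISRE core had differences of 0.44 to 1.22, with a median of 0.54. The 6 effectors without such a match in their window, Isg20, Ifit2, Ifi44, Oasl1, Oasl2 and Samhd1, had differences of 0.18 to 0.44, with a median of 0.26. Bst2, the lowest of the former, and Isg20, the highest of the latter, were at 0.44 each. In the GTPases, the 7 genes with an ISRE core had a median of 0.16 and ranged from -0.25 to 0.27. A GAS core was shared by genes with differences from -0.19 (Irgm2) to 1.22 (Oas1a). The 12 measured members with a GAS core had a median of 0.18 and the 20 without a median of 0.31. With and without it, the medians were 0.44 and 0.52 in effectors and 0.05 and 0.22 in GTPases. In regulators they were -0.01 and 0.30, and no sensor had a GAS core. The split of the effectors by the ISRE core was noticed after the values were seen and was not tested.

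The other genes of the interferon pathway, taken from lists by function, were mostly closer to 0 than the effectors. Of 21 interferon genes, Ifng was the one measured, at 7.33 and 3.74 FPKM, a ratio of 1.96 (1.497 to 2.58) from 164 against 84 reads. The receptor chains for interferon gamma had ratios below 1, Ifngr1 at 553 and 735 FPKM (0.753, 0.731 to 0.775) and Ifngr2 at 35.9 and 52.4 FPKM (0.685, 0.64 to 0.734). Jak2, a kinase of that receptor, had a ratio of 0.82 and Tyk2, a kinase of the type I receptor, a ratio of 1.21. Of the 10 measured receptor and JAK-STAT genes, 5 lay above 0 and 5 below, and none passed 1.5-fold. Of 8 feedback inhibitors, 4 lay above 0 and 4 below. Cish, at 60.1 and 93.8 FPKM, was the member past 1.5-fold, and lower, and Socs1, the main brake on interferon gamma signalling, stood at 29.9 and 42.1 FPKM, a ratio of 0.711 (0.663 to 0.763). Socs3 had a ratio of 0.875 and Ptpn11 a ratio of 1.26. Among 8 other IRF family genes and partners, Irf4, a factor of activated T cells, was 1.58-fold higher, while Irf2 and Irf2bp2 had ratios of 1.18 and 0.79.

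A wider list of 60 measured interferon-stimulated genes outside the 47 lay between the effectors and the GTPases, with a median of 0.28, 50 above 0 and 10 below. At least 2-fold higher were 3 of them and 12 at least 1.5-fold, with none lower by either rule. Cxcl10, a chemokine for CXCR3-bearing cells, stood at 93.9 and 32.6 FPKM (2.88, 2.66 to 3.12), and Ly6a, the surface antigen Sca-1, at 119 and 43.3 FPKM (2.75, 2.51 to 3.01). Ifi30, a lysosomal thiol reductase, had 260 reads against 121, and Mov10 had the lowest difference, with a ratio of 0.829. The 8 other measured GBP and IRG genes had a median of 0.002, with 4 above 0 and 4 below and none past 1.5-fold. Gbp2b was lowest, at 21.01 and 26.1 FPKM, and Tgtp2 highest, at 21.5 and 17.95 FPKM. Gbp11, with 43 reads against 35, and Irgc1, with 30 against 40, had intervals that included 1.

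Antigen presentation genes, many of which answer interferon gamma, were nearly level. Of 17 measured, 10 lay above 0 and 7 below, with a median of 0.09 and none past 1.5-fold. Psme2 and Psmb9, parts of the immunoproteasome and its activator, had ratios of 1.25 and 1.21 and Psmb10 a ratio of 1.15, and H2-Q6, a nonclassical class I gene, had a ratio of 0.837. Of 10 measured adaptors and sensors of RNA and DNA sensing, 6 lay above 0 and 4 below, with a median of 0.16 and none past 1.5-fold on the log2(FPKM + 1) scale. Ticam1, Myd88 and Cgas had ratios of 1.42, 1.34 and 1.52 and Traf3 a ratio of 0.926.

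**Figure D5:**
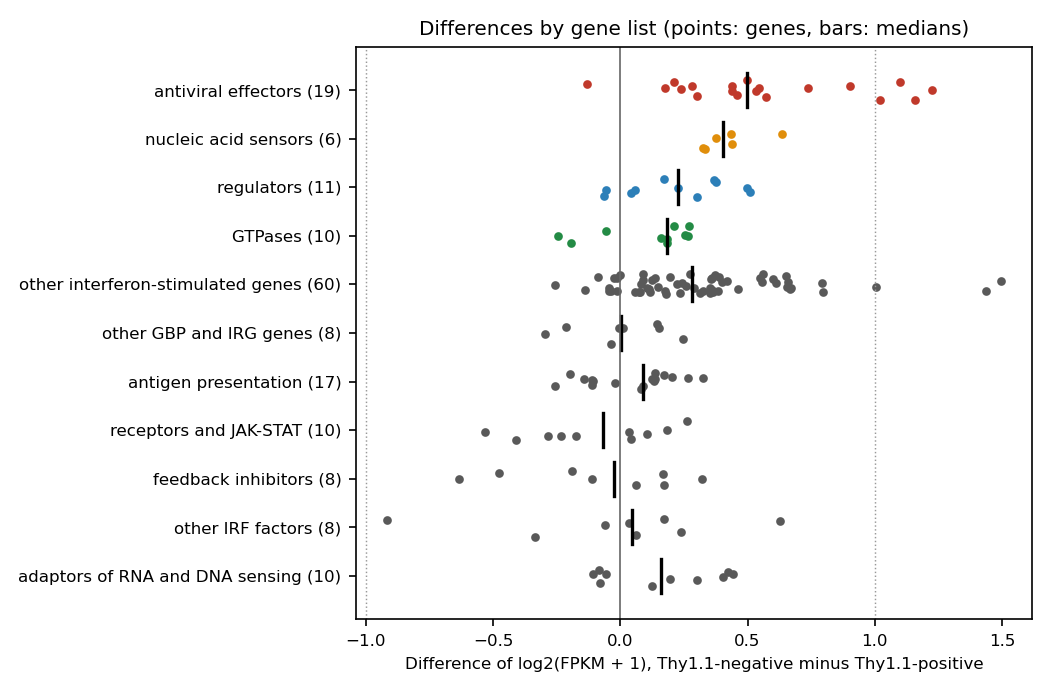
Difference of log2(FPKM + 1), Thy1.1-negative minus Thy1.1-positive, for the 4 member classes in colour and 7 further lists of the interferon pathway in grey, with the number of measured genes in parentheses. Points are genes, jittered vertically, and black bars are medians. Effectors and sensors have the highest medians, 0.50 and 0.41, and receptor and JAK-STAT genes the lowest, -0.07.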

How the data were processed

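Transcripts were measured by RNA-seq in 2 libraries made from total RNA, per the labels' protocols. Values are FPKM deposited by the authors per Ensembl gene ID, with 1 column for each population and P and N in the column names taken for the sign of Thy1.1. Per the submitters' processing notes, HTSeq 0.6.1, TopHat2 2.0.12, Bowtie2 2.2.3 and mm9 were used. The strand setting of the counting is not stated. Symbols came from GENCODE M21 (96.8% of IDs matched), and promoters from RefSeq on GRCm38.p6, a build other than mm9, so they serve as sequence only.

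FPKM ratios of all 23442 genes above 0 in both libraries were whole-number ratios times a common factor within 2e-12. The library totals came from genes with 1 annotated transcript. Whole reads per gene were the multiple giving a whole gene length, within 0.0001 bases, nearest to the mean annotated transcript length. This worked for all 47 members and 99.9% of measured genes, and the reads so found added up to 100.2% and 100.1% of the library totals. Levels between genes rest on those lengths, ratios do not. Intervals are exact Clopper-Pearson at 95%, and PCR copies are not independent molecules. Recovery of the smallest whole reads, and intervals built from known reads, were tested on simulated data. The choice of the multiple was not. No count model was used, since 1 library per population leaves no replicate error. A gene was called at 2-fold on log2(FPKM + 1) with a mean of at least 1 FPKM.

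The members, lists and rules were chosen with earlier results of these data known. All members measured were named. In other lists the largest and smallest difference and up to 2 more by size were named, and Oas1b, Oas1c, Ifnar1 and Ifnar2 were added. As alternatives, pseudocounts of 0.1 and 5, filters of 0 and 5 FPKM, 4 rescalings, fold rules of 1.5 and 4, other class definitions and a longer ISRE were tried. Python 3.11.15 with scipy 1.17.1 was used.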

Additional observations from a re-analysis of the deposited data

How the results depend on the processing

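The count of members at least 2-fold higher was 4 as reported. It was 2 with a pseudocount of 5, 7 with a fold rule of 1.5 and 0 with a fold rule of 4, and it ranged from 3 to 5 under the other pseudocount, the filters and the rescalings. No member was 2-fold lower under any of these. Under upper-quartile scaling the median gene shifted from 0.03 to 0.26, and with it the median of the members from 0.31 to 0.55, of the effectors from 0.50 to 0.74 and of the GTPases from 0.18 to 0.44. The gap between effectors and GTPases ranged from 0.25 to 0.34 over the alternatives run. With a longer ISRE, the core followed directly by CT, 30.3% of members with a promoter had a match in place of 57.6%, against 0.303% of all genes. Intervals built from the smallest whole reads that give each ratio, an alternative chosen after seeing the data, lay above 1 for 32 members in place of 34 and below 1 for 2 in place of 4. The removal of Oas1a, Oas2 and Oas3 from the class comparison was also chosen after seeing the data. No paired analysis was possible because each population is 1 library, and no library could be left out. Depth limits Oas1g, Ifi44 and Ifi204 most.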
